A study of Bos taurus with 6 samples.

Results

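The genes described here are 39 genes of fatty acid oxidation: the enzymes of mitochondrial and peroxisomal β-oxidation, the carnitine shuttle that supplies the mitochondrial pathway, and a few regulators other than the PPAR receptors. They were listed by symbol, and all 39 were found among the 23475 genes with deposited values. In mitochondrial β-oxidation a fatty acyl-CoA is shortened in a spiral of dehydrogenation, hydration, a further dehydrogenation and thiolytic cleavage, and its electrons pass through the electron transfer flavoprotein to the respiratory chain. Peroxisomes run a related spiral on very long and branched chains, beginning with acyl-CoA oxidases. White fat cells mainly store fatty acids, and their precursors hold mitochondria that can oxidise them.

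RNA sequencing was used to ask how bta-miR-484 acts on gene expression in bovine fat cells. The cells, labelled adipocytes and called preadipocytes in the paper, were isolated from subcutaneous fat of calves, cultured in high-glucose medium with fetal bovine serum, and all of them were transfected. The agomir group, with 3 libraries, received the bta-miR-484 agomir, a modified RNA duplex used to supply cells with extra copies of a miRNA. The agomir NC group, also with 3 libraries and called the controls, received the matching negative control. All were collected 48 h after transfection, and no untransfected group was analysed here. The sources used here leave unsaid whether a group's 3 samples came from separate calves or separate cultures, so every p-value measures only the spread between these samples, which may be technical.

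Levels are in FPKM, fragments scaled to the length of the transcript and the size of the library, so they can be compared between genes as well as between libraries. The depth of each library is unknown, and no counting error can be given. Library totals, the sum of FPKM over all genes, ranged from 365977 to 379361. The 10 fibroblast or preadipocyte markers all had a mean of at least 0.5 FPKM, led by COL3A1 at 7623 FPKM, and their summed level lay between 23684 and 24868 FPKM in the 6 libraries. Collagens dominate that sum, and within it DCN, named after its value was seen, was at 2840, 2899 and 2850 FPKM in agomir samples, compared with 2991, 3102 and 3248 FPKM in controls, at an adjusted p of 0.376 in limma. Of 10 mature adipocyte markers 6 reached 0.5 FPKM, led by LPL at 3.73 FPKM, and the list summed to 12.8, 13.6 and 12.9 FPKM in agomir samples, compared with 13.9, 12.3 and 12.3 FPKM in controls. The sum holds genes of opposite sign: FABP4, named after its value was seen, measured 1.82, 2.33 and 1.54 FPKM after the agomir, against 3.57, 2.21 and 2.88 FPKM in the controls, and PPARG was higher with the agomir. Neither passed adjustment over all genes. ADIPOQ, PLIN4, CIDEC and LEP, which mark fat cells filled with lipid, were lower still, the highest of them ADIPOQ at a mean of 0.140 FPKM. The libraries therefore carried the markers of precursor cells and lacked several defining markers of mature adipocytes, and whether differentiation had been induced in these samples is not stated.

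Markers of other cells were low, apart from 2 of 4 smooth muscle or pericyte genes, ACTG2 at 41.2 FPKM and CNN1 at 15.0 FPKM. The rest of that list, MYH11 at 0.359 FPKM and RGS5 at 0.0136 FPKM, lay under 0.5 FPKM. The list's sum lay between 49.1 and 59.0 FPKM with the groups overlapping. Skeletal muscle markers, from a tissue rich in fatty acid oxidation, had 0 of 6 genes at 0.5 FPKM, with MYOD1 and CKM listed at 0. Hepatocyte markers had 0 of 4, led by ALB at 0.0952 FPKM, with HNF4A and CYP7A1 listed at 0. The hepatocyte list summed to 0.0742, 0.0263 and 0 FPKM after the agomir, against 0.229, 0.192 and 0.223 FPKM in the controls, and its part in any difference described here was not tested. Brown fat markers had 1 of 4 genes at 0.5 FPKM, which was PRDM16 at 1.61 FPKM, while ELOVL3 was listed at 0 in the 6 libraries and UCP1 in 5 of them. Endothelial markers had 2 of 6, led by VWF at 3.39 FPKM, macrophage or leukocyte markers 2 of 6, led by CD14 at 6.27 FPKM, and epithelial or mesothelial markers 1 of 5, led by MSLN at 0.777 FPKM.

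Fatty acid oxidation genes were well expressed in both groups. Of the 39 members 24 had a mean of at least 10 FPKM, 12 lay between 1 and 10 FPKM, and 3, namely CPT1B, CPT1C and PDK4, lay under 0.5 FPKM and were not tested. The other 36 reached the required mean of 0.5 FPKM across libraries, as did 12422 of all genes. The median member that passed stood at the 70.6th percentile of the levels of those genes. The highest member was ECHS1, the mitochondrial enoyl-CoA hydratase, at 68.1 ± 3.12 against 66.3 ± 3.68 FPKM in the controls (SD, n = 3 each), and it stood 40.5-fold above the lowest tested member, the peroxisomal enzyme EHHADH. Summed over the 39 members, the level was 687, 697 and 682 FPKM in agomir samples, compared with 702, 681 and 687 FPKM in controls. The groups overlapped in this sum, which made up between 0.181% and 0.190% of all FPKM of a library.

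**Figure D1:**
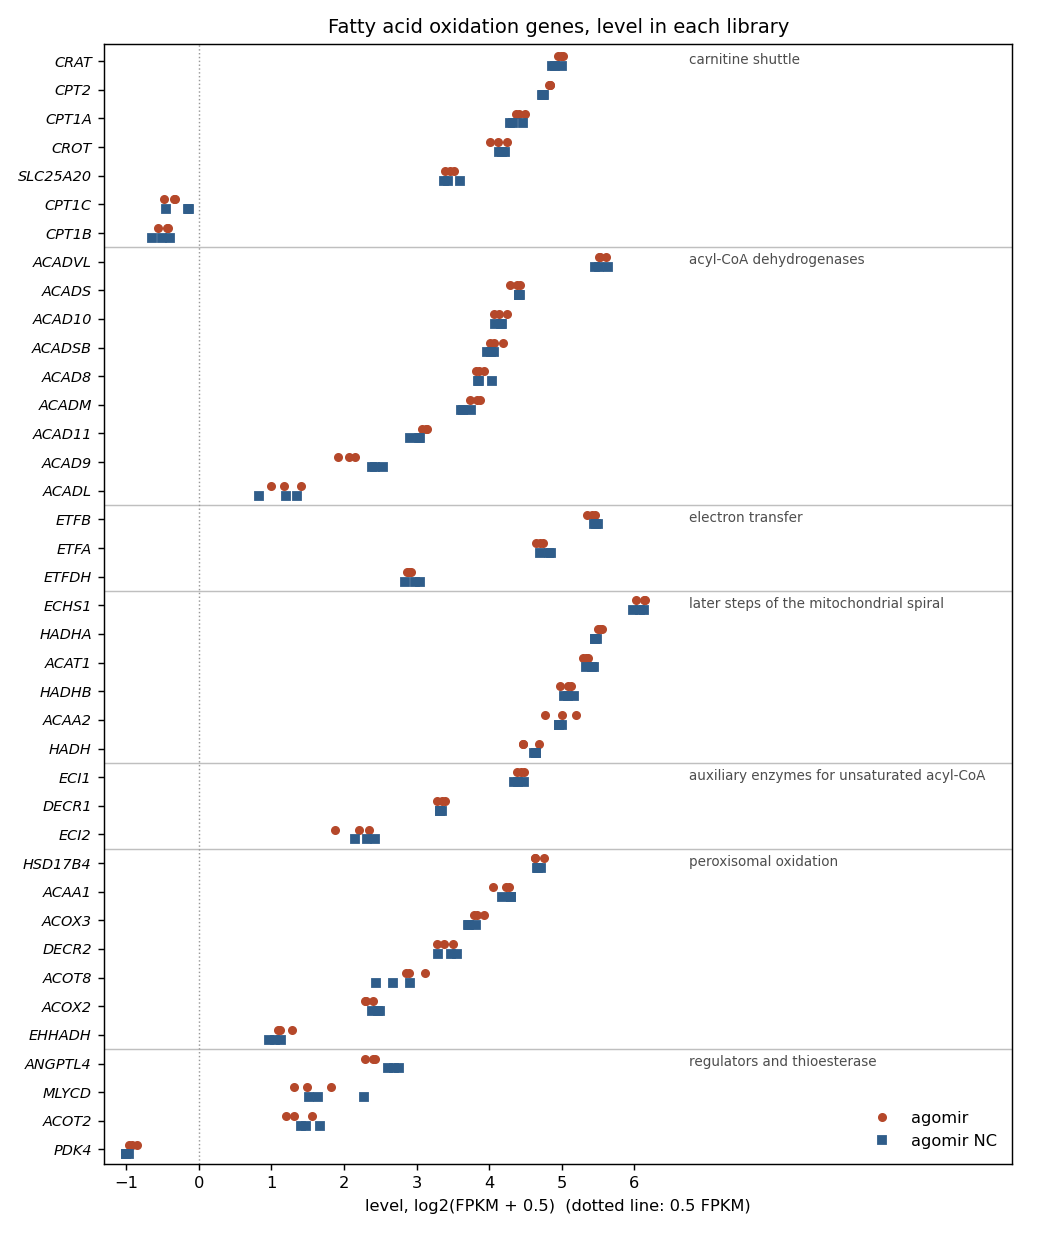
Level of each of the 39 fatty acid oxidation genes as log2(FPKM + 0.5), on the horizontal axis, with 1 point per library (circles, 3 agomir libraries; squares, 3 agomir NC libraries), grouped by role. CPT1C, CPT1B and PDK4 lie left of the dotted line at 0.5 FPKM, and the points of the groups part without overlap for 5 of the 36 tested genes, ACAD9 and ANGPTL4 lower and CPT2, HADHA and ACAD11 higher with the agomir.

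The groups were compared on log2(FPKM + 0.5), a scale on which fold changes of weakly expressed genes come out too small, by limma's moderated test, two-sided, over all 12422 genes. ACAD9 and ANGPTL4 were lower and ACADM and ACOT8 higher with the agomir at an unadjusted p under 0.05, and none of them passed adjustment. The count of 2 higher members among 36 stands beside 6.63% of all genes tested that were higher, and the count of 2 lower members beside 4.31% that were lower, so the members' shares were close to those of all genes. Once limma's p-values were adjusted by Benjamini-Hochberg over all genes, 0 of the 36 members and 0.00805% of all genes were under 0.05, the latter being 1 gene outside the list, TRAPPC4, named after its value was seen, which passed in 1 of the 6 fits with a library left out. The adjusted p-values of the members ran from 0.257 to 0.981. With 3 libraries a group, the exact two-sided permutation test has 0.1 as its smallest p, so it also placed 0 members under 0.05.

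All 3 agomir libraries lay above all 3 agomir NC libraries in 3 members, CPT2, HADHA and ACAD11, where 10.9% of all genes tested did so. They lay below in 2 members, ACAD9 and ANGPTL4, where 6.36% of all genes did so. After median-ratio scaling of the libraries the split was 2 higher and 6 lower, where 8.59% and 8.33% of all genes tested did so, and HADHA was no longer among them. The higher were CPT2 and ACAD11, and the lower ACAD9, ANGPTL4, ACADS, ACAT1, ETFB and ACOX2. The log2 differences of the 36 members ran from -0.40 to 0.28, 17 positive and 19 negative, with a median of -0.0085 against 0.013 over all genes tested. A difference of under 0.1 in size was found in 26 of the 36, and in 28 of the 36 the group means were within 10% of each other, as in 8920 of the 12422 genes. The 95% interval held 0 in 32 members and lay wholly between -0.5 and 0.5 in 33. In bulk RNA a lower level cannot be told apart from fewer cells that express a gene.

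**Figure D2:**
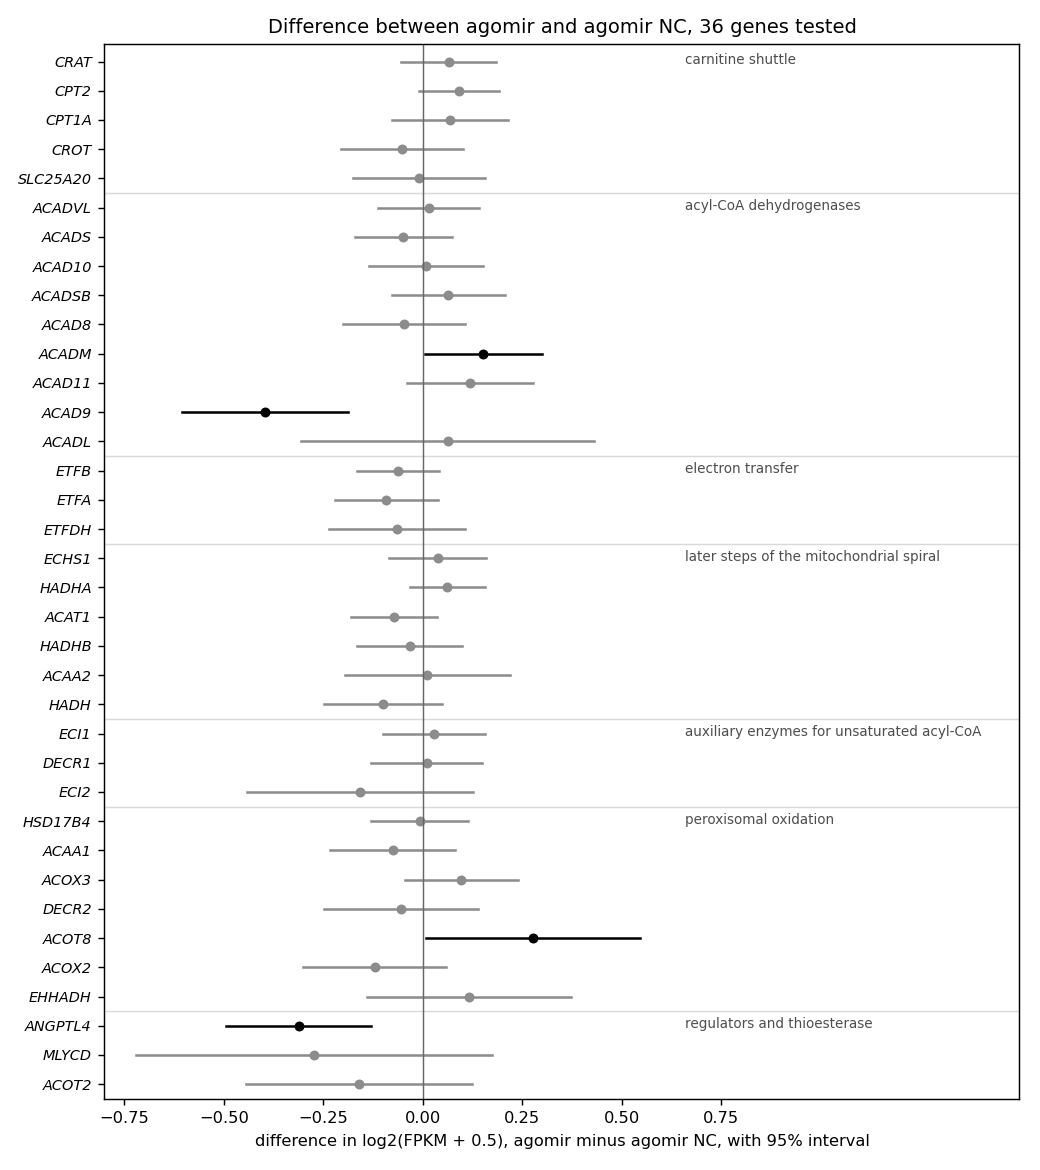
Difference between agomir and agomir NC in log2(FPKM + 0.5) on the horizontal axis for the 36 tested fatty acid oxidation genes (points) with the 95% interval from limma (lines), grouped by role. Black marks the 4 genes at an unadjusted p under 0.05, ACAD9 and ANGPTL4 to the left of 0 and ACADM and ACOT8 to the right, and the intervals of the other 32 hold 0.

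The carnitine shuttle carries long acyl chains into mitochondria. CPT1A, the outer-membrane transferase that malonyl-CoA inhibits and that controls entry, measured 20.8, 22.1 and 20.2 FPKM after the agomir, against 21.7, 19.5 and 19.0 FPKM in the controls. The groups overlapped, with agomir NC replicate 1 above 2 of the agomir libraries. Group means were 21.0 ± 0.982 against 20.1 ± 1.42 FPKM (SD, n = 3 each), and the log2 difference was 0.069 (standard error 0.065, 95% interval -0.077 to 0.21, adjusted p = 0.744 from limma). It was 0.030 without agomir NC replicate 3 and 0.12 without agomir NC replicate 1. The muscle isoform CPT1B was at 0.241, 0.246 and 0.174 FPKM against 0.141, 0.260 and 0.200 FPKM, and the brain isoform CPT1C at 0.287, 0.296 and 0.216 FPKM against 0.410, 0.234 and 0.399 FPKM. Both overlapped between groups, and CPT1A supplied between 96.9% and 98.1% of the summed FPKM of the 3 isoforms in each library.

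CPT2, the inner-membrane transferase that returns the acyl chain to coenzyme A, measured 28.1, 28.0 and 27.9 FPKM in agomir samples, compared with 26.2, 26.5 and 26.1 FPKM in controls. The agomir libraries all stood above the agomir NC libraries, and both groups were narrow, with the smallest pooled SD of any tested member, 0.0083 on the log2 scale. Group means of 28.0 ± 0.0888 and 26.2 ± 0.201 FPKM (SD, n = 3 each) stood in a ratio of 1.07. Its log2 difference was 0.091 (standard error 0.045, 95% interval -0.0092 to 0.19), and limma, which draws the spread of a gene towards that of genes at a like level, gave an adjusted p of 0.502, with the unadjusted p under 0.05 only in the fit with no filter. By exact permutation, two-sided, p was 0.1, which groups that do not overlap reach by construction. The ratio of CPT2 to CPT1A in FPKM lay between 1.21 and 1.38 in the 6 libraries and overlapped between the groups.

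In the other tested shuttle genes the groups overlapped. CRAT, the carnitine acetyltransferase, was the most abundant of them at 31.2 ± 0.879 against 29.8 ± 1.53 FPKM (SD, n = 3 each), a log2 difference of 0.065, and it overlaps PTPA, at a mean of 59.9 FPKM, in the RefSeq annotation. CROT, the peroxisomal octanoyltransferase, was at 17.0 ± 1.46 against 17.6 ± 0.488 FPKM. SLC25A20, the carrier that exchanges acylcarnitine for carnitine across the inner membrane, was at 10.5 ± 0.475 against 10.6 ± 0.872 FPKM, with the highest adjusted p of the members, 0.981 in limma.

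Among the acyl-CoA dehydrogenases, which open each round of the spiral, ACAD9 stood apart. This flavoprotein is known both as a dehydrogenase of long chains and as an assembly factor of respiratory complex I. It measured 3.29, 3.71 and 3.95 FPKM after the agomir, against 5.32, 4.70 and 4.85 FPKM in the controls. The highest agomir library was below the lowest control, and the gap between them was wider than the SD of either group. Group means of 3.65 ± 0.332 and 4.96 ± 0.322 FPKM (SD, n = 3 each) stood in a ratio of 0.736. On the log2 scale the difference was -0.40 (standard error 0.093, 95% interval -0.61 to -0.19), with an unadjusted p of 0.00188 in limma, and 0.257 after Benjamini-Hochberg adjustment over all genes, the lowest of the members. Leaving out any single library gave differences between -0.45 and -0.33. In the RefSeq annotation of ARS-UCD2.0 ACAD9 overlaps CFAP92, which has no value under that name among the deposited genes, and whether counting used strand is not given in the sources used here, so reads of overlapping genes cannot be told apart.

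ACADM, the medium-chain dehydrogenase, measured 13.8, 12.8 and 14.2 FPKM in agomir samples, compared with 11.7, 12.9 and 12.0 FPKM in controls. The groups crossed at agomir replicate 2, which lay just under agomir NC replicate 2, and the other 2 agomir libraries were above the agomir NC group. Group means were 13.6 ± 0.699 against 12.2 ± 0.646 FPKM (SD, n = 3 each), and the log2 difference was 0.15 (standard error 0.066, 95% interval 0.0048 to 0.30). Limma's unadjusted p was 0.0443 and its adjusted p 0.442. Of 16 other settings, 7 kept the unadjusted p under 0.05, and neither median-ratio scaling nor quantile normalization was among them.

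ACAD11, a dehydrogenase of long and very long chains, measured 7.91, 8.36 and 8.25 FPKM after the agomir, against 7.79, 6.99 and 7.70 FPKM in the controls. The groups did not overlap, but agomir replicate 1 and agomir NC replicate 1 were nearly level. The log2 difference was 0.12 (standard error 0.071, 95% interval -0.040 to 0.28, adjusted p = 0.588 from limma), and 0.072 without agomir NC replicate 2. The very long-chain enzyme ACADVL was the most abundant dehydrogenase, at 46.4 ± 1.77 against 46.0 ± 2.95 FPKM (SD, n = 3 each). Together with ACADL, ACADM and ACADS it spans the chain lengths of straight fatty acids, and it made up between 54.9% and 59.0% of the summed FPKM of these 4 genes in every library. The long-chain enzyme ACADL was scarce, at 1.80 ± 0.338 against 1.71 ± 0.401 FPKM. The short-chain enzyme ACADS was at 20.1 ± 0.988 against 20.8 ± 0.0562 FPKM.

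ACADSB and ACAD8, which act on the branched acyl-CoAs of isoleucine and valine, were at 16.5 ± 1.08 against 15.7 ± 0.525 FPKM and at 14.1 ± 0.592 against 14.6 ± 1.11 FPKM (SD, n = 3 each). ACAD10 was at 17.3 ± 1.19 against 17.1 ± 0.567 FPKM, and it overlaps ATXN2 and BRAP in the RefSeq annotation. The groups overlapped in all of these except ACAD9 and ACAD11, and after median-ratio scaling ACADS. As a list the 9 dehydrogenases had 6 positive and 3 negative differences with a median of 0.015, which after median-ratio scaling were 4 and 5 with a median of -0.0026.

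Electrons leave the dehydrogenases through the flavoprotein subunits ETFA and ETFB and reach ubiquinone through ETFDH. ETFA measured 26.3, 24.5 and 25.5 FPKM in agomir samples, compared with 28.4, 25.4 and 27.7 FPKM in controls. ETFB was at 43.2, 40.3 and 42.3 FPKM against 43.1, 44.6 and 43.7 FPKM, and ETFDH at 6.91, 6.76 and 7.05 FPKM against 7.77, 7.37 and 6.65 FPKM. Each gene overlapped between the groups, and each was slightly lower on average with the agomir, though ETFB no longer overlapped after median-ratio scaling and ETFA had an unadjusted p under 0.05 without agomir NC replicate 2. The log2 differences were -0.092 for ETFA, -0.062 for ETFB and -0.065 for ETFDH, and their 95% intervals all held 0, with the lowest adjusted p at 0.605 in limma. Summed, the 3 genes measured 76.4, 71.7 and 74.8 FPKM after the agomir, against 79.2, 77.3 and 78.1 FPKM in the controls. The sums did not overlap, the closest being agomir replicate 1 and agomir NC replicate 2, and the sum was given no test. Of all single genes tested, 6.36% had every agomir library below every agomir NC library. The ratio of ETFA to ETFB lay between 0.602 and 0.608 in the agomir libraries and was 0.658, 0.569 and 0.634 in the agomir NC libraries, so the agomir values lay inside the wider range of the controls.

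The later steps of the spiral hold ECHS1, the most abundant member. HADHA, the α subunit of the trifunctional protein that hydrates and oxidises long chains, measured 44.5, 46.3 and 45.8 FPKM in agomir samples, compared with 43.4, 44.1 and 43.3 FPKM in controls. The agomir libraries were all above the agomir NC libraries, though agomir replicate 1 and agomir NC replicate 2 were close. Its log2 difference was 0.062 (standard error 0.042, 95% interval -0.033 to 0.16, adjusted p = 0.630 from limma), and the groups overlapped after median-ratio scaling and after quantile normalization. HADHB, the β subunit with the thiolase activity, was at 32.9 ± 1.90 against 33.7 ± 1.64 FPKM (SD, n = 3 each), and the ratio of HADHA to HADHB lay between 1.22 and 1.44 with the groups overlapping.

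The enzymes of shorter chains showed no shared direction. HADH, the hydroxyacyl-CoA dehydrogenase of short and medium chains, measured 21.5, 25.2 and 21.6 FPKM after the agomir, against 24.1, 24.5 and 24.5 FPKM in the controls. Agomir replicates 1 and 3 were low and agomir replicate 2 lay above the agomir NC group, and without that library HADH was lower at an unadjusted p under 0.05. ACAA2, the mitochondrial thiolase, was at 31.6, 36.1 and 26.7 FPKM against 30.8, 30.6 and 31.5 FPKM, so its agomir libraries lay on both sides of a tight agomir NC group. ACAT1, the acetoacetyl-CoA thiolase that also serves ketone bodies, was at 39.7 ± 0.943 against 41.7 ± 1.70 FPKM (SD, n = 3 each), a log2 difference of -0.072 with the groups overlapping as deposited but not after median-ratio scaling or quantile normalization. The 6 genes of these steps summed to between 233 and 250 FPKM, with overlapping groups, and 3 of the differences were positive and 3 negative.

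Unsaturated chains need isomerases and a reductase before they can go on in the spiral. The mitochondrial isomerase ECI1 was at 21.1 ± 0.701 against 20.7 ± 1.03 FPKM, and the dienoyl-CoA reductase DECR1 at 9.65 ± 0.373 against 9.57 ± 0.108 FPKM (SD, n = 3 each). ECI2, an isomerase of mitochondria and peroxisomes, measured 3.18, 4.55 and 4.10 FPKM in agomir samples, compared with 4.48, 3.95 and 4.85 FPKM in controls. Agomir replicate 1 was the lowest of the 6, the groups overlapped, and the log2 difference was -0.16 (95% interval -0.44 to 0.13).

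**Figure D3:**
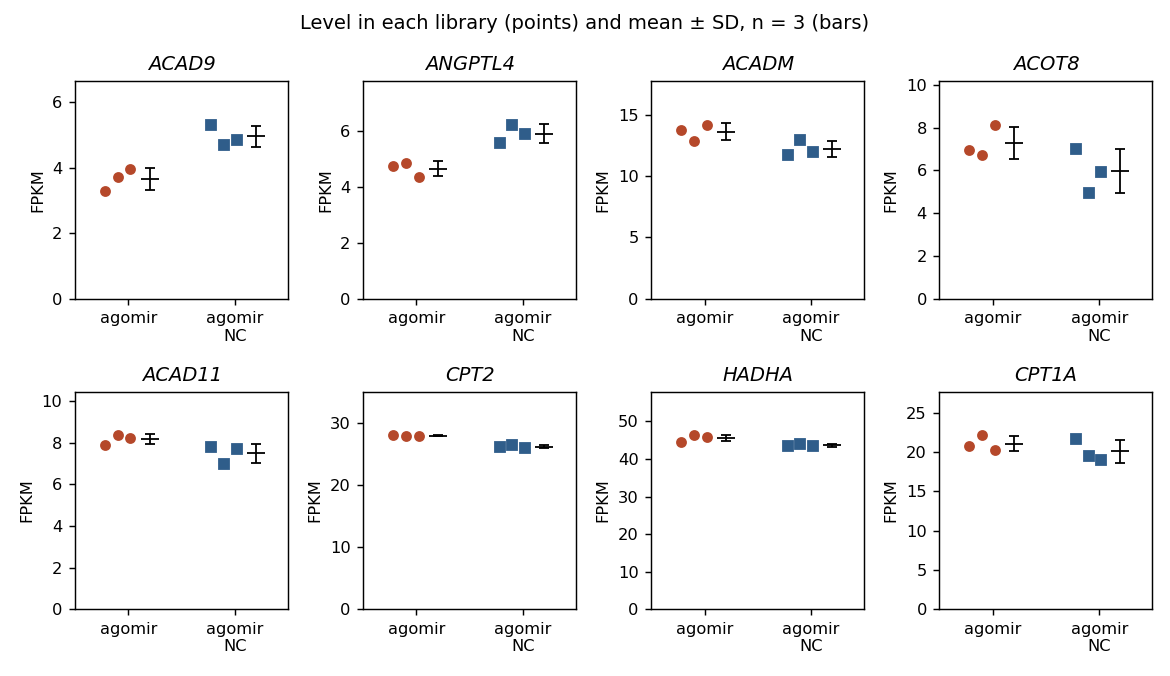
FPKM of 8 fatty acid oxidation genes in each library (circles, agomir; squares, agomir NC), with the mean and SD of the 3 libraries of a group as bars beside the points and vertical axes that start at 0. ACAD9 and ANGPTL4 lie lower in all 3 agomir libraries, CPT2, HADHA and ACAD11 slightly higher, and ACADM, ACOT8 and CPT1A overlap between the groups.

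Of the peroxisomal members, ACOT8, a thioesterase that releases free acids from acyl-CoA, measured 6.95, 6.74 and 8.15 FPKM after the agomir, against 7.003, 4.95 and 5.91 FPKM in the controls. Agomir NC replicate 1 lay above 2 of the agomir libraries, so the groups overlapped, and agomir NC replicate 2 was low. Group means of 7.28 ± 0.761 and 5.95 ± 1.03 FPKM (SD, n = 3 each) stood in a ratio of 1.22. On the log2 scale the difference was 0.28 (standard error 0.12, 95% interval 0.0072 to 0.55), and limma's p was 0.0453 unadjusted and 0.445 adjusted. It was 0.16 without agomir NC replicate 2 and 0.39 without agomir NC replicate 1, and 8 of 16 other settings kept the unadjusted p under 0.05. In the RefSeq annotation ACOT8 overlaps SNX21, which was at 8.33 ± 0.624 against 8.52 ± 0.490 FPKM (SD, n = 3 each).

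The oxidases that open the peroxisomal spiral differed in sign. ACOX3 was at 13.9 ± 0.725 against 13.0 ± 0.583 FPKM (SD, n = 3 each), a log2 difference of 0.097, and ACOX2, which acts on branched chains and bile acid precursors, at 4.52 ± 0.231 against 4.96 ± 0.210 FPKM, a log2 difference of -0.12. Of the bifunctional enzymes, HSD17B4 was the main one at 25.0 ± 1.36 against 25.1 ± 0.491 FPKM, and EHHADH the minor one at 1.75 ± 0.163 against 1.57 ± 0.116 FPKM. The thiolase ACAA1 was at 17.7 ± 1.44 against 18.7 ± 0.898 FPKM and the reductase DECR2 at 9.97 ± 0.823 against 10.4 ± 0.969 FPKM. The groups overlapped in all 7 peroxisomal members, though not in ACOX2 after median-ratio scaling, and their summed level stayed between 79.1 and 80.6 FPKM.

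ANGPTL4, a secreted inhibitor of lipoprotein lipase and a gene responsive to PPAR receptors, measured 4.76, 4.85 and 4.37 FPKM in agomir samples, compared with 5.57, 6.24 and 5.92 FPKM in controls. All agomir values were lower than all control values, with a gap wider than the SD of either group. Group means of 4.66 ± 0.258 and 5.91 ± 0.336 FPKM (SD, n = 3 each) stood in a ratio of 0.789. The log2 difference was -0.31 (standard error 0.081, 95% interval -0.49 to -0.13), and limma's p was 0.00357 unadjusted and 0.284 adjusted. Leaving out any single library gave between -0.35 and -0.27, and the unadjusted p of both ANGPTL4 and ACAD9 was under 0.05 in 16 of 16 other settings. LPL, the lipase that ANGPTL4 inhibits, measured 3.48, 4.33 and 3.67 FPKM after the agomir, against 3.79, 3.64 and 3.49 FPKM in the controls, and its groups overlapped. ANGPTL4 overlaps LOC132345705, a long noncoding RNA without a deposited value under that name, so the limit given for ACAD9 holds for it too.

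MLYCD, which degrades malonyl-CoA and so relieves CPT1, measured 1.99, 3.03 and 2.30 FPKM in agomir samples, compared with 2.62, 4.34 and 2.37 FPKM in controls. Replicate 2 was the highest library in both groups, and MLYCD had the widest pooled SD of the tested members, 0.34 on the log2 scale. Its log2 difference was -0.27 (standard error 0.20, 95% interval -0.72 to 0.17, adjusted p = 0.656 from limma), and it was -0.042 without agomir NC replicate 2 and -0.42 without agomir NC replicate 3. ACOT2, a mitochondrial thioesterase, was at 2.08 ± 0.334 against 2.37 ± 0.270 FPKM (SD, n = 3 each). PDK4, the kinase that shuts pyruvate dehydrogenase and spares glucose, reached 0.0544, 0.0285 and 0.0116 FPKM in agomir samples, compared with 0.0143 FPKM in agomir NC replicate 1, and was listed at 0 in the other 2 controls. It was near 0 in both groups and was not tested.

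Spread between libraries was small for most members. The median pooled SD of the 36 on the log2 scale was 0.075, against 0.099 over all genes tested, and it was under 0.1 in 28 of them. The widest after MLYCD were ACADL at 0.24, ECI2 and ACOT8 both at 0.19, ACOT2 at 0.16 and ACAA2 at 0.15. All of these except ACAA2 had a mean under 10 FPKM.

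Genes of the wider pathway, 94 in 4 further lists, were compared in the same fit, and 86 of them were tested. At an unadjusted p under 0.05, 6 were higher and 3 lower with the agomir, shares close to the 6.63% and 4.31% of all genes, and 0 were under 0.05 after limma's p-values were adjusted over all genes. Their median log2 difference was 0.020. Among 27 peroxisomal genes, ABCD3, a peroxisomal fatty acid transporter, measured 17.6, 19.0 and 18.7 FPKM after the agomir, against 17.1, 16.05 and 16.6 FPKM in the controls, a log2 difference of 0.15. PEX16, needed to build the peroxisomal membrane, was at 6.69, 5.92 and 5.41 FPKM against 7.26, 7.96 and 7.24 FPKM, a log2 difference of -0.30. The groups did not overlap in either gene, and the adjusted p-values in limma were 0.399 and 0.310. Over the 86 genes, the groups parted with the agomir higher in 10 and lower in 7, beside 10.9% and 6.36% of all genes tested. Genes of these lists named for their unadjusted p were picked on the same values, so their parting is no separate evidence.

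Of 24 regulators tested, 4 were higher at an unadjusted p under 0.05 and 0 lower, beside 6.63% and 4.31% of all genes. PPARA, the receptor that drives many oxidation genes, had a log2 difference of 0.65 (95% interval 0.43 to 0.87) and an adjusted p of 0.114 in limma. Beside it, 17 of the 36 oxidation members had a positive difference, and ANGPTL4 and CPT1A, both known PPARA targets, had log2 differences of -0.31 and 0.069. PPARG measured 3.99, 3.69 and 3.91 FPKM in agomir samples, compared with 3.39, 3.34 and 2.96 FPKM in controls, a log2 difference of 0.23. The coactivator PPARGC1B was at 1.02, 1.06 and 0.974 FPKM against 0.723, 0.772 and 0.722 FPKM, a log2 difference of 0.29. The corepressor NCOR1 was at 24.5, 25.7 and 24.7 FPKM against 23.9, 22.6 and 20.1 FPKM, a log2 difference of 0.17, and 0.10 without agomir NC replicate 3. The agomir values were all above the control values in these 4 genes, and the adjusted p-values of the last 3 in limma were 0.407, 0.439 and 0.406. Over the 24 regulators, the groups parted with the agomir higher in 5 and lower in 1, beside 10.9% and 6.36% of all genes tested.

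PPARD and PPARGC1A, a receptor and a coactivator of oxidation genes, had log2 differences of -0.047 (95% interval -0.21 to 0.12) and 0.028 (95% interval -0.22 to 0.28), and the groups overlapped in both. Without agomir replicate 1 the PPARD difference was -0.014. The sign of the PPARGC1A difference turned when agomir replicate 3 (-0.086) or agomir NC replicate 1 (-0.029) was left out. Among 23 genes of ketone bodies and branched-chain breakdown 0 were higher and 1 was lower, MUT, the methylmalonyl-CoA mutase, at 13.2, 12.4 and 12.6 FPKM against 14.5, 13.4 and 14.6 FPKM, a log2 difference of -0.15. Among 12 genes of carnitine supply and uptake 0 were higher and 1 was lower, SLC25A29, a mitochondrial carrier, at 6.68, 6.21 and 7.48 FPKM against 7.80, 7.83 and 7.62 FPKM, a log2 difference of -0.18. The agomir libraries of both genes lay below the agomir NC libraries, and the adjusted p-values in limma were 0.423 and 0.448. The groups parted in 0 higher and 2 lower of the 23 genes, and in 2 higher and 1 lower of the 12. Beside these stand 10.9% and 6.36% of all genes tested.

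The untested genes of these lists lay under 0.5 FPKM. Among them BBOX1, the last enzyme of carnitine synthesis, and the peroxisomal or transport genes ABCD2, HAO2 and SLC27A2 were listed at 0 in every library. ACACB, the carboxylase whose malonyl-CoA acts on CPT1 at the mitochondrial surface, had a mean of 0.00421 FPKM, PRKAA2, a catalytic subunit of AMPK, 0.0647 FPKM, and ESRRG, a nuclear receptor of oxidative tissues, 0.151 FPKM.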

How the data were processed

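RNA sequencing of 6 samples gave 1 FPKM value per gene and library, as deposited by the authors. The submitters' processing notes name fastp, HISAT2, StringTie and the build ARS-UCD1.2, with no versions, and strandedness and annotation were not stated. Over 1418 low genes at most 7 had ratios between libraries in the same bin of 0.002 (log2), so whole reads were not recovered and depth is unknown.

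Genes averaging 0.5 FPKM or more were fitted as log2(FPKM + 0.5) with limma 3.58.1 in R 4.3.3, group as the only term, a variance trend, and Benjamini-Hochberg adjustment over all genes tested. The code was checked on simulated data. Differences were given for members at an unadjusted p under 0.05 or with groups that do not overlap, for 6 members of the carnitine gate and its regulators, for genes of the wider lists at that p, and for PPARA, PPARD and PPARGC1A. The members and lists were chosen with earlier results of these data known. All 39 members matched the RefSeq table of ARS-UCD2.0, used for overlapping genes and gene span. A search of promoters for motifs was not run, since no promoter sequences were used here.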

Additional observations from a re-analysis of the deposited data

How the results depend on the processing

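Of 16 alternatives, the count of lower members stayed between 2 and 3 in all, and the lowest adjusted p of any member in limma was 0.185. The count of 2 higher members was 0 with median-ratio scaling, 0 with quantile normalization, 0 without the variance trend and 1 with the gene span trend removed. The median difference of members, -0.0085, was -0.026 with median-ratio scaling, which moved the median of all genes to -0.0032, and -0.042 with the span trend removed. Members with groups that do not overlap, 5 of 36 beside 17.2% of all genes, were 8 with median-ratio scaling, beside 16.9%. The 1 gene past limma's adjusted threshold became 0 with no filter and 0 without the variance trend, where 1604 and 1249 genes had an unadjusted p under 0.05.

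With a single library left out, genes past the adjusted threshold ranged from 0 (without agomir replicate 1 or agomir NC replicate 2, where 1220 and 1189 had an unadjusted p under 0.05) to 2 (without agomir NC replicate 3). Higher members ranged from 0 (without agomir replicate 1, agomir replicate 3 or agomir NC replicate 3) to 2, and were 1 without agomir NC replicate 1 or 2. The members' median ranged from -0.039 (without agomir replicate 2) to 0.0062. Where the genes passed, TRAPPC4 was among them only without agomir NC replicate 3. Members with groups that do not overlap ranged from 7 to 12 (without agomir NC replicate 1, beside 29.3% of all genes), and were 9 without agomir replicate 1 or agomir NC replicate 2 (28% and 27.4%) and 10 without agomir replicate 2 (25.6%), since fewer libraries have to part. The 9 genes of the wider lists at an unadjusted p under 0.05 ranged from 4 (without agomir replicate 2) to 9, and were 5 without agomir NC replicate 3. Beyond fewer libraries or other genes entering, the cause was not tested.

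The replicate number as a replicate block gave 0 genes past the adjusted threshold (1260 at an unadjusted p under 0.05), 1 higher member, 3 lower members with MLYCD added, and 5 genes of the wider lists. Deviations of same-numbered libraries correlated at -0.051, 0.053 and 0.039, so no effect shared by same-numbered libraries was seen. These correlations cannot tell whether same-numbered samples shared a calf or a culture, which the sources used here leave unsaid. Of 319 values of single genes, 316 kept their sign and stayed on the same side of the adjusted threshold. The 3 others were of PPARGC1A, at -0.0096 with the span trend removed, and from -0.086 to 0.12 with a library left out, -0.029 without agomir NC replicate 1. Unknown depth limits what can be said of members near or under 0.5 FPKM. The motif search of promoters was not run.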
